A study of Mus musculus with 9 samples.

Results

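RNA of Sox2-GFP+ cells sorted from the incisor epithelium of mouse embryos at E14.5 (called embryo cells here) was compared with RNA of mouse embryonic stem cells (mESC), with 3 arrays in each group. These are 6 of the 9 arrays of the series, chosen by their titles. The other 3, of Sox2-GFP+ cells from the labial cervical loop of the incisor at postnatal day 30, entered only the shared estimate of the spread. The embryo cells came from dissected incisors of mice carrying a green fluorescent reporter of Sox2, were dissociated, and were sorted as living GFP-positive cells; each sample pooled several embryos. The mESC were purchased; the sources used here name neither their line nor their culture medium, and no dissociation or sort is described for them. Cell type, culture against tissue, dissociation and sorting therefore cannot be told apart in these groups. The design text calls all samples biological replicates, but no source states separate cultures for the mESC. P-values thus measure only how these samples vary, and that variation may be technical. Per gene, fewer cells of a type and less RNA per cell cannot be told apart in such bulk samples.

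As background, mouse embryonic stem cells are kept from differentiating by a small network of transcription factors, with Pou5f1 (Oct4), Sox2 and Nanog at its centre, and Pou5f1 and Sox2 proteins bind DNA side by side at many of its genes. The incisor epithelium of this stage is ectoderm, held by Trp63 and the basal keratins, that buds into the jaw under the control of Shh, Wnt, Fgf and Bmp signals exchanged with the mesenchyme. Sox2 is used again in this tissue, where it marks the cells that later form the epithelial stem cell niche of the incisor. The comparison therefore sets 2 kinds of Sox2-expressing cells side by side.

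Values are the deposited log2 signals per transcript cluster, the set of probes for a gene, so a difference of 1 is 2-fold. A cluster was called where limma gave an adjusted p under 0.05 and the difference, embryo minus mESC, was at least 1 in size. Errors after ± are standard errors (SE) of the fitted difference or standard deviations (SD) over 3 arrays. The negative control probe sets of the arrays had a median log2 signal of 4.81 and a 95th percentile of 9.27, and the median of all named clusters lay between 4.72 and 4.9 on every array. A group mean near or below it is not a reliable level, and a difference against it understates the change. Signals of different genes come from different probes, so levels are compared only within a gene.

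Of 36559 named transcript clusters, 4068 (11.1%) passed: embryo cells had the higher signal in 1833 (5.01%) and the lower one in 2235 (6.11%). The median difference over all named clusters was -0.07. Centring every array on its median moved that value by 0.13 and the calls to 2279 higher and 1779 lower, so that 56.2% of calls were higher against 45.1% with the deposited scaling; the balance of the 2 directions rests on the scaling. In 4065 of the called clusters the embryo arrays lay entirely above or below the mESC arrays, as they did in 42.1% of all named clusters. A statement below that the groups did not overlap therefore adds little to a call. Called increases reached at least 16-fold in 121 clusters, and called decreases in 148. In 492 of the clusters called lower the embryo mean lay below the negative-control median, as the mESC mean did in 180 of those called higher. Correlations across clusters, which are not independent replicates, were 0.993 to 0.995 between embryo arrays, 0.995 to 0.996 between mESC arrays and 0.953 to 0.961 between the groups. By column names of a second deposited summary, read here as processing days, all 3 mESC and 2 embryo columns were of the second day and 1 embryo column of the first. Within the second day 3885 clusters were called, 3621 of them in the same direction as with all arrays. The plot of group means shows where the named genes lie.

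**Figure D1:**
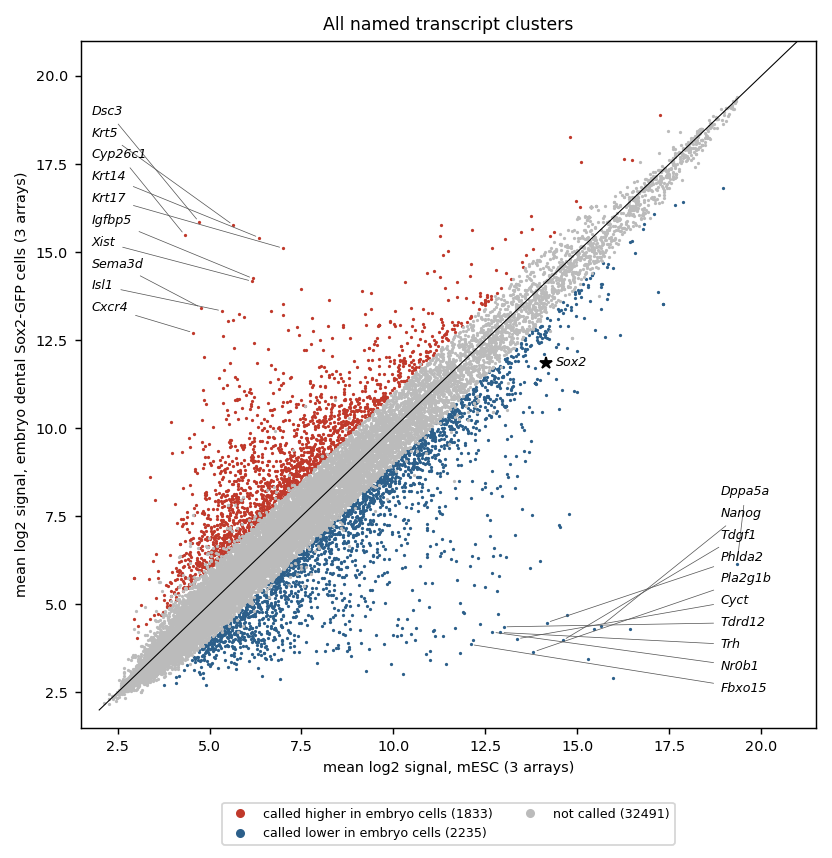
Mean log2 signal of embryo cells (vertical axis) against mESC (horizontal axis) for each named transcript cluster, over 3 arrays each; red clusters were called higher in embryo cells (1833), blue ones lower (2235), grey ones not called, and the line marks equal signals. The labelled genes are the 10 with the largest increases and the 10 with the largest decreases by the rule for named genes; Sox2 (star) lies below the line, with a high mean signal in both groups.

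Sox2, the gene behind the sort, was lower in embryo cells than in mESC yet was measured well above the controls in both. It encodes an HMG-box transcription factor and lies on chromosome 3, 34650005 to 34652461, by the positions in the deposited annotation. Its log2 signals were 11.68, 12.24 and 11.66 in embryo cells, against 14.31, 14.18 and 13.99 in mESC. All 3 embryo values lie below all 3 mESC values and none is near the 4.81 of the negative controls. The difference was -2.3 ± 0.42 SE, adjusted p = 0.0051.

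Most other factors of the pluripotency network were lower as well, many of them by far more. Of 21 measured genes of the 23 listed pluripotency transcription factors, 0 were called higher and 18 lower in embryo cells (median difference -3.47, against -0.07 over all named clusters), where 6.11% of all clusters were called lower. In embryo cells the means of 12 of the 21 lay below the negative-control median, against 1 of the 21 in mESC. Nanog, a homeodomain factor of the network's centre on chromosome 6, 122707489 to 122714633, had log2 signals of 3.89, 4.97 and 4.3 in embryo cells, against 15.59, 15.79 and 15.58 in mESC. The embryo arrays sit at the level of the controls and the mESC arrays far above it, a difference of -11.27 ± 0.24 SE, adjusted p = 7.15e-08. Pou5f1, the POU factor that partners with Sox2, had 3.79, 3.4 and 3.54 in embryo cells, against 10.91, 10.81 and 10.91 in mESC (-7.3 ± 0.11 SE, adjusted p = 1.21e-08). Nr0b1, an orphan nuclear receptor gene on the X chromosome, had 4.51, 4.07 and 4.06 in embryo cells, against 12.54, 12.58 and 12.94 in mESC (-8.47 ± 0.19 SE, adjusted p = 9.55e-08). For Pou5f1 and Nr0b1, as for Nanog, no embryo array overlapped an mESC array, and every embryo value of these 3 genes but that of Nanog on replicate 2 was below 4.81. Zinc finger genes of the list behaved alike in direction: Sall4 differed by -6.59 ± 0.10 SE, adjusted p = 1.51e-08, Sall1 by -6.76 ± 0.25 SE, adjusted p = 1.32e-06 and Zscan10 by -4.62 ± 0.14 SE, adjusted p = 4.08e-07. Utf1, a chromatin-bound factor of stem cells, differed by -7.35 ± 0.11 SE, adjusted p = 1.22e-08. The 3 members that did not pass, named after their values were seen, were Klf5, Tbx3 and Gbx2. Tfcp2l1, a factor of the naive state, shares its cluster with a second symbol and was not in the main test; that cluster had 6.8, 6.57 and 6.17 in embryo cells, against 11.83, 11.7 and 11.71 in mESC (-5.23 ± 0.27 SE, adjusted p = 7.44e-06 with such clusters added).

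The promoter of Nanog is shown because the best known joint binding site of Oct4 and Sox2 proteins lies there, and because Nanog and Pou5f1 signals were at the control level in embryo cells that still carried Sox2 RNA. The stretch below is 130 bases just upstream of the start of the gene, from RefSeq, GRCm38.p6, plus strand, chr6:122707354-122707483, with the octamer motif (TTTGCAT) and the Sox motif (ACAATG) in capitals.
Nanog promoter: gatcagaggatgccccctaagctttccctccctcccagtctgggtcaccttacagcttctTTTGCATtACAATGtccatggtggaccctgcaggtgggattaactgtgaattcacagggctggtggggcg
Each motif was searched on both strands of the 250 bases before the start of 27025 genes. The octamer motif occurred in 4.65% of them and the Sox motif in 12.2%. The joined form, an octamer followed after 1 base by a Sox motif, occurred in 0.0037%, which is 1 gene, Nanog itself. Its matches also count for both motifs. The letters searched are those of the Nanog site, so Nanog had to match. Joint sites with other letters or spacing were not counted, so the share does not measure how rare such sites are. In the stretch shown the joined form begins at position -75 from the start site. A match is a description of the letters and says nothing about binding in these cells.

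Genes used as markers of the pluripotent state beyond its factors were lower almost without exception. Of 28 measured, 27 were called lower and 0 higher, with a median difference of -4.72 and a range of -13.2 to -0.9. Dppa5a, which encodes an RNA-binding protein of stem cells, had the largest decrease of the named genes, with log2 signals of 6.39, 5.87 and 6.16 in embryo cells, against 19.22, 19.3 and 19.5 in mESC (-13.2 ± 0.28 SE, adjusted p = 7.03e-08). Tdgf1 (Cripto), a co-receptor gene of Nodal signalling, had 4.09, 3.84 and 4.01 in embryo cells, against 14.68, 14.72 and 14.43 in mESC (-10.63 ± 0.11 SE, adjusted p = 2.02e-09). Fbxo15, an F-box gene used as a reporter of pluripotency, had 3.82, 3.86 and 3.9 in embryo cells, against 12.39, 12.07 and 11.83 in mESC (-8.24 ± 0.13 SE, adjusted p = 1.51e-08). The groups lay far apart in each of these 3 genes. Among the ligands, Fgf4, the autocrine FGF of stem cells, differed by -5.56 ± 0.14 SE, adjusted p = 1.71e-07, Gdf3 by -4.21 ± 0.13 SE, adjusted p = 5.51e-07 and Nodal by -2.12 ± 0.13 SE, adjusted p = 2.07e-05. Dppa2, Dppa3 and Dppa4, nuclear proteins of early embryo and germ cells, differed by -7.18, -7.58 and -6.4. Jam2, a cell adhesion gene, differed by -6.82 ± 0.46 SE, adjusted p = 2.99e-05.

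Of the named genes with the 10 largest decreases, 5 belong to none of the pluripotency lists. Pla2g1b, a secreted phospholipase gene, had 3.6, 3.89 and 3.47 in embryo cells, against 13.64, 13.77 and 14.01 in mESC (-10.15 ± 0.13 SE, adjusted p = 8e-09). Trh, the precursor gene of thyrotropin-releasing hormone, had 4.15, 4.31 and 4.14 in embryo cells, against 12.88, 12.89 and 12.95 in mESC (-8.71 ± 0.06 SE, adjusted p = 3.7e-10). Cyct, which encodes the testis form of cytochrome c, had 3.62, 4.22 and 4.21 in embryo cells, against 13.25, 13.36 and 13.46 in mESC (-9.34 ± 0.20 SE, adjusted p = 6.57e-08). In all 3 genes the embryo arrays were below the control median and the mESC arrays between 12.88 and 14.01. Phlda2, an imprinted gene that restrains placental growth, differed by -9.69 ± 0.21 SE, adjusted p = 6.87e-08. Tdrd12, a gene of the piRNA pathway of germ cells, differed by -8.63 ± 0.09 SE, adjusted p = 2.02e-09.

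Genes of the germline and of the 2-cell-like state, which small numbers of stem cells enter in culture, were lower as well. The germline list had 0 higher and 12 lower of 17 measured (median difference -2.4). Mael, a gene of piRNA granules, had 4.05, 3.94 and 3.65 in embryo cells, against 9.56, 9.78 and 9.88 in mESC (-5.86 ± 0.12 SE, adjusted p = 6.55e-08), and Sycp3, which encodes a protein of the meiotic chromosome axis, had 4.74, 4.8 and 4.97 in embryo cells, against 10.66, 10.44 and 10.53 in mESC (-5.71 ± 0.14 SE, adjusted p = 1.33e-07). Neither gene overlapped between groups. Stag3, a meiotic cohesin gene (-4.55 ± 0.10 SE), Ddx4, the RNA helicase gene Vasa (-4.27 ± 0.19 SE), Tex19.1 (-4.49 ± 0.08 SE) and the X-linked homeobox gene Rhox5 (-4.2 ± 0.17 SE) were also called. Rhox5 kept a mean signal of 9.35 in embryo cells, against 13.55 in mESC. Among 9 measured 2-cell-like genes, 6 were called lower and 0 higher, and the 6 are the Zscan4 genes, near-identical copies whose probes may share signal, with differences of -3.44 (Zscan4f) to -2.46 (Zscan4a). All 9 had embryo means below the control median. Of 16 measured genes of the primed state and the germ layers, 3 were lower and 0 higher, the methyltransferase gene Dnmt3b (-4.73 ± 0.11 SE, adjusted p = 1.07e-07), Eomes (-1.25 ± 0.10 SE, adjusted p = 6.12e-05) and the mesoderm gene T (-1.16 ± 0.11 SE, adjusted p = 0.000141); 11 of the 16 were below the control median in both groups.

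**Figure D2:**
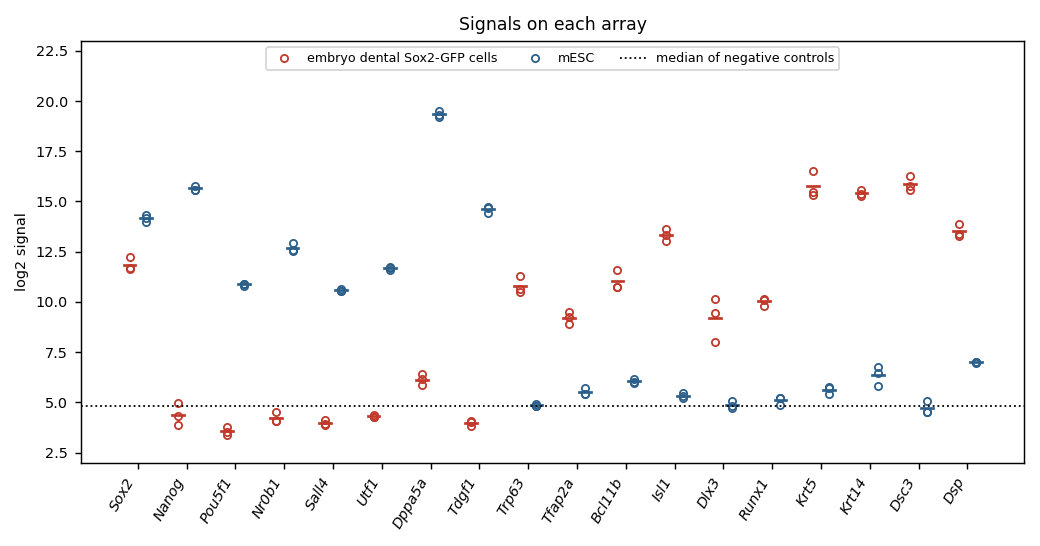
Log2 signal on each of the 3 embryo arrays (red circles) and 3 mESC arrays (blue circles) for Sox2, 7 pluripotency genes, 6 epithelial or dental transcription factor genes and 4 keratin or desmosome genes, with group means as bars and the negative-control median of 4.81 as a dotted line. Sox2 is the gene of this set with clear signal in both groups; in the others one group lies high and the other much lower, in most of them near the control level.

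Transcripts of a pair of microRNA loci stand beside these factors. MicroRNAs of the miR-290 locus are abundant in mouse embryonic stem cells, and miR-205 is a microRNA of stratified epithelia. The arrays measure the transcripts of the loci, not the mature microRNAs. The mature sequences are shown, from RefSeq (GRCm38.p6), with the seed (bases 2 to 8) in capitals, because miR-291a, miR-294, miR-295 and miR-302b share it; that of miR-291b differs in its last base.
mmu-miR-291a-3p: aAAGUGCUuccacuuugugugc
mmu-miR-294-3p: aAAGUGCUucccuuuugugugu
mmu-miR-295-3p: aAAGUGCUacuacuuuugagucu
mmu-miR-291b-3p: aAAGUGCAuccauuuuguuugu
mmu-miR-302b-3p: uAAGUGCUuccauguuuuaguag
mmu-miR-205-5p: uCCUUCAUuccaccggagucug
The cluster that spans most of the miR-290 locus (chromosome 7, 3218784 to 3221015 in the authors' coordinates) carries 7 symbols, D7Ertd143e with Mir291a, Mir291b and Mir292 to Mir295, so its signal is not that of 1 microRNA gene. It had log2 signals of 4.3, 3.94 and 4.05 in embryo cells, against 6.77, 6.28 and 5.96 in mESC (-2.24 ± 0.19 SE, adjusted p = 0.000108 with clusters of several symbols added to the test). The cluster of Mir205 and its host transcript 4631405K08Rik (chromosome 1, 193507238 to 193509803) had 8.04, 8.52 and 9.0 in embryo cells, against 4.99, 4.86 and 4.43 in mESC (3.76 ± 0.46 SE, adjusted p = 0.000706). The groups did not overlap in either. The neighbouring cluster of Mir290a and Mir290 (chromosome 7, 3218626 to 3218708) was 4.43 ± 0.14 in embryo cells and 4.73 ± 0.32 in mESC (SD, n = 3 each), below the control median in both, and was not called (-0.31 ± 0.17 SE, adjusted p = 0.217). Of the 3042 clusters with several symbols, 9.4% were called. Of the 53 that hold a member of a gene list, 6 were called higher and 9 lower. Among the called ones, Lamb3, a laminin chain gene, differed by 2.06, Igf2bp1, an RNA-binding protein gene, by -3.55, a cluster of Zscan4f and 2 other symbols by -2.77, Sesn2 by -1.92, Dst by -1.31 and Eno1b by -1.20. Of 20 measured single-symbol precursors of the list, 0 were called higher and 1 lower, Mirlet7a-1 (-1.44 ± 0.19 SE, adjusted p = 0.00103), and 15 lay below the control median in both groups. Mir302b was 1 of these (difference -0.43), as were Mir302a (-0.33), Mir302c (-0.21), Mir367 (-0.21), Mir290b (-0.22), Mir292b (-0.24), Mir141 (-0.16), Mir200a (0.86), Mir200b (-0.15) and Mir203 (-0.2), which gives no statement on those loci at this signal. Mir302d, Mir200c and Mir31 differed by -0.5, 0.82 and 0.47 and were not called. The other let-7 precursors, Mirlet7b, Mirlet7c-1, Mirlet7e, Mirlet7f-1, Mirlet7g and Mirlet7i, differed by -0.5 to 0.16 and were not called.

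Transcription factors of surface epithelium were mostly higher in embryo cells. Of 19 measured, 10 were called higher and 2 lower (median difference 1.09), and 5.01% of all clusters were called higher. Trp63, the p53 relative that stratified epithelia depend on, had log2 signals of 10.51, 10.63 and 11.3 in embryo cells, against 4.8, 4.92 and 4.83 in mESC (5.96 ± 0.26 SE, adjusted p = 2.94e-06). The mESC arrays lie at the control level and the embryo arrays far above it. Tfap2a, an AP-2 factor of ectoderm, had 8.88, 9.26 and 9.49 in embryo cells, against 5.42, 5.4 and 5.7 in mESC (3.7 ± 0.16 SE, adjusted p = 2.85e-06). The groups did not overlap in Tfap2a. Barx2 (2.3 ± 0.37 SE) and Grhl2 (1.75 ± 0.24 SE), which maintain epithelial adhesion, and the epithelial splicing regulators Esrp1 (2.41 ± 0.24 SE) and Esrp2 (1.76 ± 0.20 SE) were called higher too. Esrp1 had clear signal in both groups, with an embryo mean of 12.74 beside an mESC mean of 10.33. Grhl2 had an embryo mean of 10.42 and an mESC mean of 8.67, the latter below the negative-control 95th percentile of 9.27. The lower pair was Tfap2c, a second AP-2 gene (-1.68 ± 0.16 SE, adjusted p = 0.000196), and Elf3, named after its value was seen.

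Genes that pattern the tooth and mouth gave some of the largest single increases. Of 28 measured dental and oral transcription factors, 13 were called higher and 0 lower (median difference 0.82); within the second processing day 12 were higher. Isl1, a LIM homeodomain factor of the incisor epithelium on chromosome 13, 116298270 to 116309688, had 13.04, 13.32 and 13.64 in embryo cells, against 5.23, 5.45 and 5.33 in mESC (8.0 ± 0.28 SE, adjusted p = 1e-06). It was near the control level in mESC and high on every embryo array. Like Trp63 and the keratins below, it set embryo cells apart from mESC, and this comparison holds no other tissue. Runx1 (4.93 ± 0.29 SE, adjusted p = 1.55e-05) and Bcl11b (4.97 ± 0.22 SE, adjusted p = 2.96e-06), which act in incisor epithelium as well as in blood, were of similar size. Among distal-less and Msh homeobox genes, Msx2 (4.61 ± 0.61 SE), Dlx3 (4.32 ± 0.48 SE), Dlx5 (3.66 ± 0.31 SE) and Dlx2 (3.23 ± 0.23 SE) were called. Pitx1, a homeobox gene of the jaw and hindlimb, differed by 1.97 ± 0.17 SE, adjusted p = 0.000116. The 34 measured Hox genes, which pattern the trunk and are absent from the jaw, had group means below 4.81 in both embryo cells and mESC; 1 of them was called lower, against 2 without mESC replicate 1 and 0 without mESC replicate 3, with centring on the median or with quantile normalisation.

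Of 9 measured markers named for incisor stem cells, 4 were called higher and 1 lower, the lower one being Sox2. Abcg2, an efflux transporter gene of the list that shares its cluster with another symbol and is not among the 9, was called lower too, with 7.09, 5.97 and 6.43 in embryo cells, against 9.62, 9.99 and 9.76 in mESC (-3.29 ± 0.26 SE, adjusted p = 6.37e-05). Igfbp5, an IGF-binding protein gene, had 14.1, 13.77 and 14.88 in embryo cells, against 5.64, 6.25 and 6.64 in mESC (8.07 ± 0.38 SE, adjusted p = 4.4e-06). Bmi1, a Polycomb gene, differed by 3.0 ± 0.17 SE, adjusted p = 1.13e-05, and the Hedgehog targets Gli1 and Ptch1 by 2.63 ± 0.17 SE, adjusted p = 2.69e-05 and 1.81 ± 0.18 SE, adjusted p = 0.00026. Lgr5, a Wnt-linked receptor gene, was 4.57 ± 0.43 in embryo cells and 3.91 ± 0.09 in mESC (SD, n = 3 each) and was not called (0.65, adjusted p = 0.0379); Sfrp5 (0.18) and Yap1 (0.54) were not called either. Enamel matrix genes, which ameloblasts make later, were 1 higher and 0 lower of 7, with Enam at 2.8 ± 0.54 SE, adjusted p = 0.00634, a call not made within the second day (adjusted p = 0.0681) nor in the authors' deposited table. Amelx had 5.79, 7.23 and 4.92 in embryo cells, against 5.12, 7.32 and 5.0 in mESC. Ambn had 6.72, 7.67 and 5.74 in embryo cells, against 5.06, 7.54 and 5.07 in mESC. Neither was called. Enam had 6.94, 8.82 and 8.07 in embryo cells, against 4.67, 6.13 and 4.64 in mESC. In all 3 genes replicate 2 was the highest array of each group, and the cause was not tested. Odam had 7.1, 6.23 and 9.25 in embryo cells, against 4.65, 4.38 and 4.59 in mESC without passing (adjusted p = 0.121).

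Keratins and desmosomes, the filaments of epithelial cells and the junctions that anchor them, held 4 of the 10 largest increases. Keratins had 7 higher and 0 lower of 19 measured (median difference 0.51), and 6 were higher within the second processing day. Krt5, the type II keratin of basal cells on chromosome 15, 101707070 to 101712891, had 15.49, 15.33 and 16.5 in embryo cells, against 5.44, 5.79 and 5.7 in mESC (10.13 ± 0.36 SE, adjusted p = 1.07e-06). Krt14, its type I partner on chromosome 11, 100203162 to 100207548, had 15.35, 15.29 and 15.58 in embryo cells, against 5.83, 6.45 and 6.77 in mESC (9.06 ± 0.23 SE, adjusted p = 1.71e-07). Krt17, a keratin of embryonic ectoderm and appendages, had 14.88, 14.9 and 15.54 in embryo cells, against 6.84, 6.99 and 7.17 in mESC (8.11 ± 0.25 SE, adjusted p = 4.84e-07). The 3 genes lay at or above 14.88 on every embryo array and at or below 7.17 on every mESC array. Krt18, a keratin of simple epithelia, was called higher from a clear mESC level, at 12.36 ± 0.54 in embryo cells and 9.56 ± 0.41 in mESC (2.8 ± 0.51 SE, adjusted p = 0.00495). Krt15 was higher by 2.73 ± 0.74 SE, adjusted p = 0.0276, but varied over the embryo arrays (9.54, 7.26 and 9.07), and its call was lost when embryo replicate 1 or 3 or any mESC replicate was left out (adjusted p = 0.0621 to 0.0954).

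Desmosome genes had 9 higher and 1 lower of 14 measured (median difference 2.34), and 7 were higher within the second processing day. Dsc3, a desmosomal cadherin gene on chromosome 18, 19960930 to 20002097, had 15.55, 15.76 and 16.26 in embryo cells, against 4.52, 5.08 and 4.52 in mESC (11.15 ± 0.31 SE, adjusted p = 2.68e-07). Dsp, which encodes the plaque protein that ties keratin to the junction, had 13.27, 13.37 and 13.9 in embryo cells, against 6.96, 7.0 and 7.02 in mESC (6.52 ± 0.32 SE, adjusted p = 5.56e-06). Pkp1, a plakophilin gene of stratified epithelia, differed by 4.0 ± 0.41 SE, adjusted p = 0.000266, Perp by 3.27 ± 0.18 SE, adjusted p = 1.13e-05, and the cadherin genes Dsc2 and Dsg2 by 3.63 ± 0.37 SE, adjusted p = 0.000266 and 2.43 ± 0.34 SE, adjusted p = 0.00127. Pkp2, a second plakophilin gene, was the 1 lower member, with 6.78, 7.22 and 6.96 in embryo cells, against 9.71, 10.04 and 10.14 in mESC (-2.98 ± 0.17 SE, adjusted p = 1.47e-05). So 2 plakophilins differed in opposite directions, each with separate groups.

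Adherens and tight junction genes went both ways, with 3 higher and 7 lower of 21 measured (median difference 0.1) and 5 lower after centring on the median. Cdh1 (E-cadherin) was high in both groups, at 13.88 ± 0.50 in embryo cells and 15.04 ± 0.12 in mESC; its difference of -1.16 ± 0.28 SE, adjusted p = 0.0173 was not called without embryo replicate 1 or 2 or mESC replicate 2 or 3, nor within the second day (adjusted p = 0.0804). Cdh3 (P-cadherin) had 12.61, 13.06 and 13.23 in embryo cells, against 10.07, 10.17 and 9.82 in mESC (2.95 ± 0.17 SE, adjusted p = 1.37e-05). Claudin genes, whose proteins seal tight junctions, differed in direction: Cldn1 by 5.28 ± 0.22 SE, adjusted p = 2.65e-06 and Cldn4 by -2.93 ± 0.20 SE, adjusted p = 3.52e-05, with Cldn7 at -1.75 ± 0.12 SE and Cldn8 at 1.38 ± 0.24 SE. The tight junction scaffold gene Tjp3 differed by -2.03. Basement membrane and matrix adhesion genes had 14 higher and 4 lower of 26 measured (median difference 1.04), and 12 were higher within the second processing day. Fras1, Frem1 and Frem2, which build a complex that anchors embryonic epithelium to its basement membrane, were called higher together: Fras1 had 9.8, 10.23 and 10.7 in embryo cells, against 4.85, 4.87 and 4.63 in mESC (5.46 ± 0.20 SE, adjusted p = 1.28e-06), and Frem1 and Frem2 differed by 5.01 ± 0.13 SE, adjusted p = 1.63e-07 and 3.75 ± 0.23 SE, adjusted p = 2.07e-05. Fermt1 (kindlin-1) differed by 4.09 ± 0.25 SE, adjusted p = 1.85e-05, and the integrin genes of the hemidesmosome, Itgb4 and Itga6, by 3.15 ± 0.14 SE, adjusted p = 3.34e-06 and 1.59 ± 0.21 SE, adjusted p = 0.00093. The 3 genes listed under plaque and measured in a cluster of 1 symbol, among them Fermt1, were called higher. Dst, a plaque gene in a cluster of several symbols, was called lower (-1.31 ± 0.23 SE, adjusted p = 0.00366 with such clusters added). The nidogen genes, whose proteins link laminin and collagen, were lower: Nid2 had 6.93, 6.16 and 5.88 in embryo cells, against 12.27, 12.38 and 12.26 in mESC (-5.98 ± 0.33 SE, adjusted p = 1.16e-05), and Nid1 differed by -3.62 ± 1.02 SE, adjusted p = 0.0327, a call lost without any 1 array except embryo replicate 1 (adjusted p = 0.0676 to 0.115). Of the 4 lower members, the count was 2 when embryo replicate 3, mESC replicate 2 or mESC replicate 3 was left out.

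**Figure D3:**
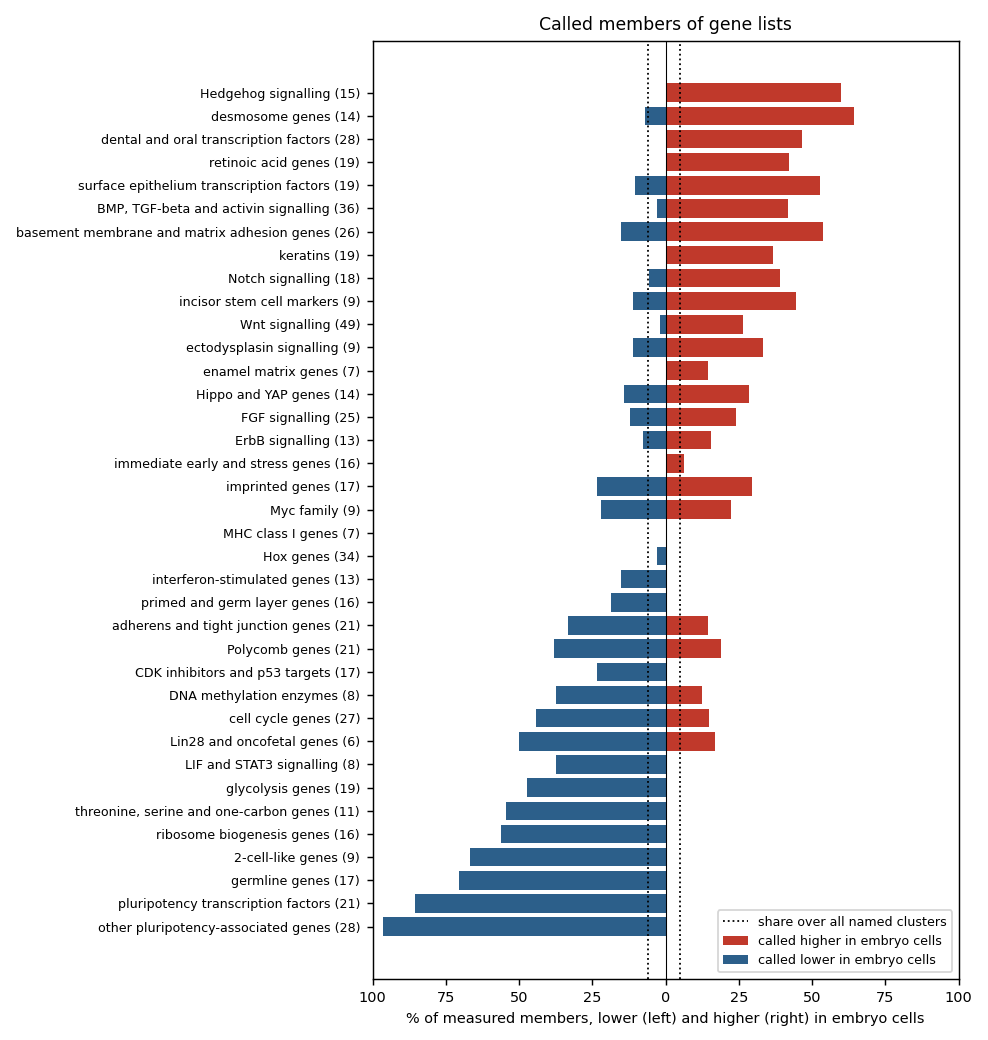
Share of the measured members of each gene list called higher (red, to the right) or lower (blue, to the left) in embryo cells than in mESC, in percent of measured members, whose number stands in brackets; dotted lines mark the shares over all named clusters, 5.01% higher and 6.11% lower. Lists are in the order of the share higher minus the share lower: pluripotency and germline lists lie at the lower end of that order, and Hedgehog signalling, desmosomes and dental transcription factors at the upper.

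Most called signalling genes were higher in embryo cells. Over all named clusters 5.01% were called higher and 6.11% lower, the shares to set beside the counts of this and later paragraphs. Hedgehog genes, the pathway through which dental epithelium grows and acts on mesenchyme, had 9 higher and 0 lower of 15 measured (median difference 1.18). The ligand gene Shh, transcribed in early dental epithelium, had 10.83, 11.5 and 12.05 in embryo cells, against 5.62, 5.36 and 6.06 in mESC (5.78 ± 0.38 SE, adjusted p = 2.61e-05), with no overlap of the groups. The signal transducer gene Smo, the co-receptor gene Boc and the receptor gene Ptch1, the last itself a target of the pathway, differed by 2.63, 2.99 and 1.81. The effectors Gli1 and Gli3 differed by 2.63 ± 0.17 SE, adjusted p = 2.69e-05 and 3.03 ± 0.11 SE, adjusted p = 1.38e-06. Of the other ligand genes, Ihh (0.11) and Dhh (-0.08) were below the control median in both groups.

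FGF genes had 6 higher and 3 lower of 25 measured (median difference -0.07). Among ligands, Fgf4 (above) and Fgf17 (-2.64 ± 0.16 SE, adjusted p = 1.61e-05) were lower in embryo cells and Fgf9 was higher (1.56 ± 0.19 SE, adjusted p = 0.000748). Of 5 receptor genes 4 were called higher and 0 lower: Fgfr2, whose epithelial isoform receives mesenchymal FGF, had 9.83, 9.77 and 10.81 in embryo cells, against 6.24, 6.39 and 6.53 in mESC (3.75 ± 0.25 SE, adjusted p = 3.12e-05), and Fgfr1 and Fgfr3 differed by 2.94 ± 0.20 SE, adjusted p = 2.88e-05 and 1.26 ± 0.17 SE, adjusted p = 0.00125. Of the feedback genes, Dusp6, an ERK phosphatase, had 15.51, 16.09 and 15.28 in embryo cells, against 12.02, 11.98 and 12.38 in mESC (3.5 ± 0.25 SE, adjusted p = 3.79e-05), whereas Spry4 was lower (-1.55 ± 0.17 SE, adjusted p = 0.00045). Etv1, an FGF target gene in a cluster of several symbols, differed by 3.30 (adjusted p = 8.5e-05).

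Wnt genes had 13 higher and 1 lower of 49 measured (median difference 0.51). The largest increases were in secreted antagonists. Sostdc1 (ectodin), which limits tooth number in mice, had 12.59, 13.07 and 13.57 in embryo cells, against 5.6, 5.38 and 5.93 in mESC (7.44 ± 0.31 SE, adjusted p = 2.43e-06), and Wif1 differed by 6.26 ± 0.44 SE, adjusted p = 3.96e-05. Kremen2, a co-receptor of another antagonist family, differed by 2.7 ± 0.18 SE, adjusted p = 2.89e-05. On the sending side, Wls, needed for Wnt secretion, differed by 2.89 ± 0.39 SE, adjusted p = 0.00115 (not called in the authors' deposited table) and the ligand gene Wnt5a by 2.62 ± 0.21 SE, adjusted p = 8.09e-05, while Wnt3, Wnt3a and Wnt4 were not called (0.39, 0.12 and 0.97). Of the receptors, Fzd3 had 10.05, 10.05 and 10.59 in embryo cells, against 6.77, 6.16 and 5.53 in mESC (4.08 ± 0.34 SE, adjusted p = 8.7e-05) and Fzd8 differed by 2.24 ± 0.27 SE, adjusted p = 0.000652. Ctnnb1 (beta-catenin), in a cluster of several symbols, differed by 1.83 (adjusted p = 4.61e-05). Called members that were higher occurred among ligands, receptors and antagonists.

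BMP, TGF-beta and activin genes had 15 higher and 1 lower of 36 measured (median difference 0.7); the lower members were 3 without mESC replicate 2 and 0 without mESC replicate 3. Tgfb2, a ligand gene, had 12.27, 11.76 and 12.8 in embryo cells, against 5.29, 5.82 and 5.88 in mESC (6.61 ± 0.37 SE, adjusted p = 1.22e-05), and Bmp7 had 10.63, 10.92 and 10.9 in embryo cells, against 5.69, 6.02 and 5.55 in mESC (5.06 ± 0.17 SE, adjusted p = 7.6e-07). Bmp4, the ligand gene first used by dental epithelium and then by mesenchyme, was 7.14 ± 0.35 in embryo cells and 7.23 ± 0.30 in mESC and was not called. Bambi, a decoy receptor gene, had 12.03, 12.81 and 12.44 in embryo cells, against 6.27, 5.97 and 6.41 in mESC (6.21 ± 0.24 SE, adjusted p = 1.58e-06). The receptor gene Bmpr2 (3.84 ± 0.14 SE), the antagonist gene Fst (3.68 ± 0.60 SE) and the BMP target Id3 (3.06 ± 0.26 SE) were called higher. Each role in the pathway held called members that were higher; Bmp2, another ligand gene, was not among them (0.54).

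Notch genes had 7 higher and 1 lower of 18 measured (median difference 0.45), and 4 were higher within the second processing day. The ligand genes Jag1 and Jag2 differed by 2.2 ± 0.26 SE, adjusted p = 0.000567 and 1.82 ± 0.26 SE, adjusted p = 0.00136. The receptor gene Notch3 had 6.89, 6.65 and 6.89 in embryo cells, against 8.73, 8.66 and 8.93 in mESC (-1.96 ± 0.10 SE, adjusted p = 5.54e-06), lower in embryo cells, and Notch2 differed by 2.1 ± 0.46 SE, adjusted p = 0.012 but was not called within the second day (adjusted p = 0.0601). The target gene Hey2 differed by 2.41 ± 0.40 SE, adjusted p = 0.00292. Ectodysplasin signalling, needed for ectodermal organs, had 3 higher and 1 lower of 9 measured (median difference 0.62). Its receptor gene Edar had 7.85, 8.01 and 7.82 in embryo cells, against 5.34, 5.27 and 5.12 in mESC (2.65 ± 0.21 SE, adjusted p = 7.57e-05), and the adaptor gene Edaradd had 10.32, 10.22 and 10.81 in embryo cells, against 5.78, 5.72 and 5.61 in mESC (4.75 ± 0.36 SE, adjusted p = 5.79e-05). Tnfrsf19 (Troy), a related receptor gene, differed by 5.76 ± 0.29 SE, adjusted p = 6.76e-06, and Eda2r, the receptor gene of the other ligand form, was lower (-3.01 ± 0.19 SE, adjusted p = 2.43e-05). The ligand gene Eda was not called (0.43, adjusted p = 0.0235).

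Retinoic acid genes had 8 higher and 0 lower of 19 measured (median difference 0.05), and 6 were higher within the second processing day. Cyp26c1, an enzyme gene that breaks retinoic acid down, gave the largest increase by the rule for named genes, with 14.93, 16.03 and 15.51 in embryo cells, against 4.44, 4.27 and 4.26 in mESC (11.17 ± 0.40 SE, adjusted p = 1.11e-06; chromosome 19, 37685581 to 37693398). Cyp26a1, a second breakdown enzyme gene, had 7.76, 8.34 and 8.21 in embryo cells, against 4.7, 4.93 and 5.04 in mESC (3.21 ± 0.22 SE, adjusted p = 3.32e-05). The binding protein gene Crabp2 had 12.51, 12.99 and 13.17 in embryo cells, against 7.99, 8.1 and 8.54 in mESC (4.68 ± 0.19 SE, adjusted p = 2.28e-06), and Crabp1 differed by 2.86 ± 0.32 SE, adjusted p = 0.000397. Of the receptors Rarb was called (2.06 ± 0.28 SE, adjusted p = 0.00115). Of the genes listed under synthesis, Aldh1a3 (2.24 ± 0.34 SE, adjusted p = 0.00197) and Dhrs3 (1.10 ± 0.28 SE, adjusted p = 0.0226) were called, but neither Aldh1a1 (0.05) nor Rdh10 (-0.51). Neither Aldh1a3 nor Dhrs3 was called in the authors' deposited table. The call of Dhrs3 was also lost without embryo replicate 2 or 3 or mESC replicate 1 or 2. ErbB genes had 2 higher (15.4%) and 1 lower (7.69%) of 13 measured (median difference 0.12), the latter near the 6.11% of all named clusters. The receptor genes Erbb2 (3.2 ± 0.27 SE, adjusted p = 0.000108) and Erbb3 (1.66 ± 0.19 SE, adjusted p = 0.000485) were higher and the ligand gene Hbegf lower (-2.13 ± 0.28 SE, adjusted p = 0.000918). Without embryo replicate 1, 4 ErbB genes were higher. Hippo and YAP genes had 4 higher and 2 lower of 14 measured (median difference 0.17), among them the kinase gene Lats1 (2.54 ± 0.17 SE, adjusted p = 2.61e-05) and the factor genes Tead1 (1.53 ± 0.16 SE, adjusted p = 0.000295) and Wwtr1 (TAZ; -1.27 ± 0.13 SE, adjusted p = 0.000303). LIF and STAT3 genes, the pathway that holds mESC in culture, had 0 higher and 3 lower of 8 measured (median difference -0.25): the receptor gene Lifr (-2.15 ± 0.25 SE, adjusted p = 0.000548) and the kinase genes Pim1 (-1.34 ± 0.18 SE, adjusted p = 0.00108) and Pim3 (-1.2 ± 0.15 SE, adjusted p = 0.000667) were lower, while Il6st (0.18) and Stat3 (0.04) were not called.

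**Figure D4:**
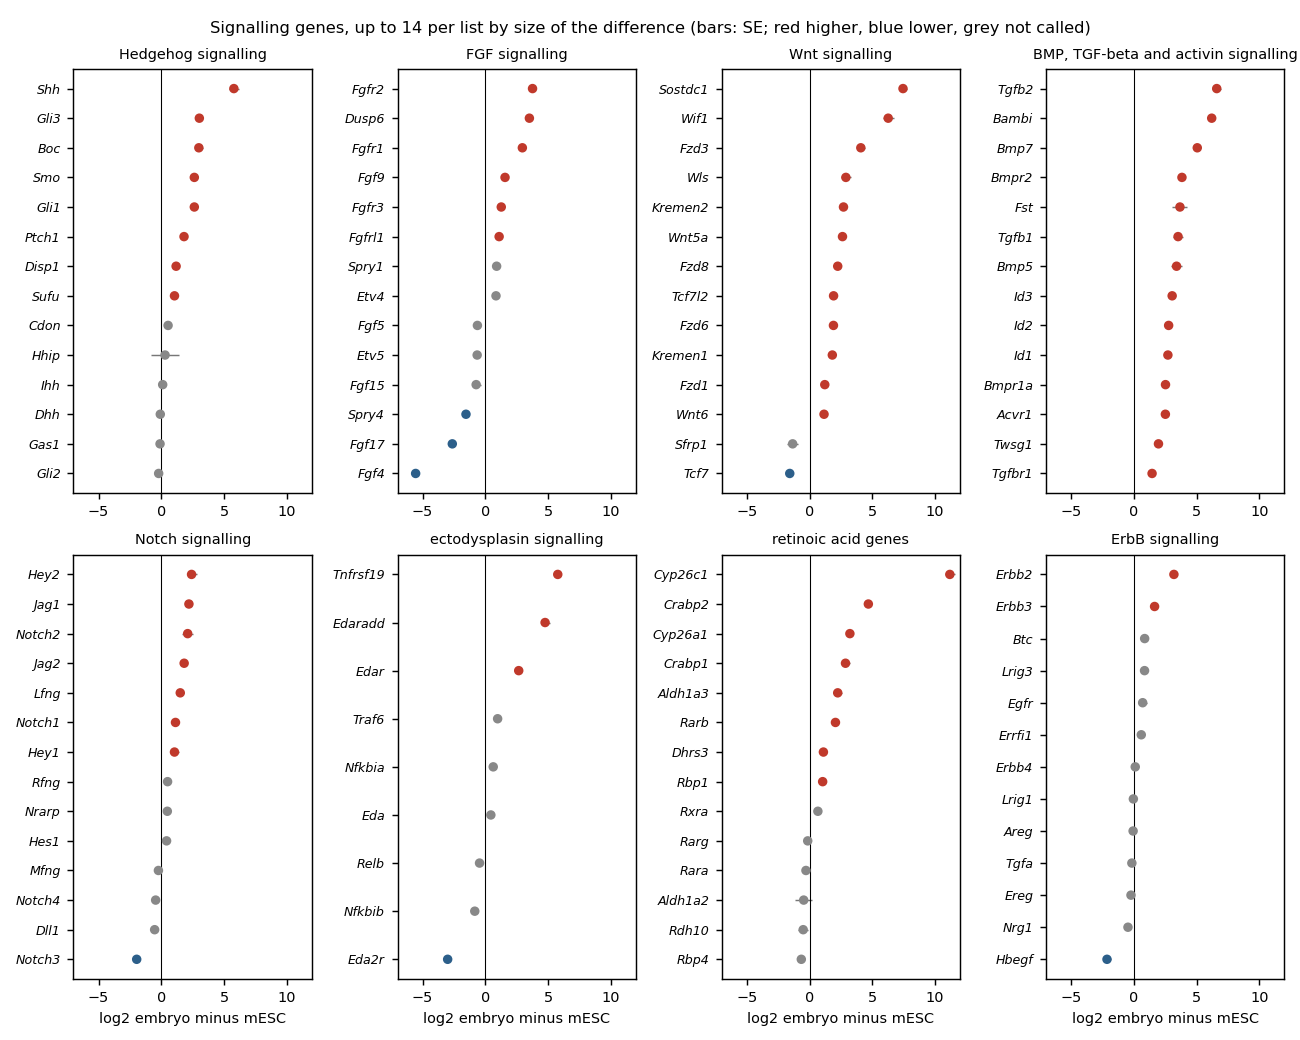
Log2 difference, embryo minus mESC (horizontal axes), with its standard error, for the reported members of 8 signalling lists, up to 14 per list by absolute difference; red points were called higher, blue lower, and grey not called. Cyp26c1, at 11.17, lies farthest right, and Fgf4, at -5.56, farthest left.

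Enzymes of DNA methylation had called members in both directions, with 1 higher and 3 lower of 8 measured (median difference -0.23). Dnmt3b, a de novo methyltransferase gene, had 6.77, 6.83 and 6.83 in embryo cells, against 11.41, 11.63 and 11.58 in mESC, and Dnmt3l, its cofactor, differed by -2.41 ± 0.13 SE, adjusted p = 1.07e-05. Tet1, a demethylating dioxygenase gene, had 8.19, 8.72 and 9.03 in embryo cells, against 13.59, 13.59 and 12.89 in mESC (-4.71 ± 0.26 SE, adjusted p = 1.13e-05). Tet3, a relative of the same function, had 10.38, 10.3 and 11.19 in embryo cells, against 6.3, 5.93 and 6.17 in mESC (4.49 ± 0.27 SE, adjusted p = 1.78e-05). Tet1 was high in mESC and Tet3 in embryo cells, without overlap. The maintenance genes Dnmt1 (-0.33) and Uhrf1 (0.36), Tet2 (-0.12) and Dnmt3a (0.37) were not called. Polycomb genes, which keep genes silent through histone marks, also went both ways, with 4 higher and 8 lower of 21 measured (median difference -0.17). Phc1 had 8.05, 8.19 and 8.2 in embryo cells, against 12.63, 12.7 and 12.66 in mESC (-4.52 ± 0.07 SE, adjusted p = 1.2e-08), and Cbx7, the main reader subunit gene of mouse stem cells, differed by -2.89 ± 0.18 SE, adjusted p = 1.99e-05. Bmi1 had 9.7, 9.47 and 10.04 in embryo cells, against 6.76, 6.54 and 6.91 in mESC (3.0 ± 0.17 SE, adjusted p = 1.13e-05), higher in embryo cells. Of the PRC2 genes, Eed (-2.08 ± 0.14 SE, adjusted p = 2.85e-05), Mtf2 (-2.03 ± 0.19 SE, adjusted p = 0.000145) and Jarid2 (-1.71 ± 0.07 SE, adjusted p = 2.27e-06) were lower and Ezh2 was not called (-0.16).

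Cell cycle genes had 4 higher and 12 lower of 27 measured (median difference -0.63). Ccne1 (cyclin E1), which stem cells keep high, had 10.44, 10.92 and 10.42 in embryo cells, against 12.75, 12.7 and 12.79 in mESC (-2.15 ± 0.24 SE, adjusted p = 0.000396), and Ccnd2 (cyclin D2) had 14.41, 14.36 and 14.62 in embryo cells, against 10.8, 11.02 and 11.49 in mESC (3.36 ± 0.16 SE, adjusted p = 5.56e-06). The 2 cyclins differed in opposite directions without overlap. Mcm2, Mcm3 and Mcm4 of the replication helicase differed by -1.41, -1.43 and -1.12 (Mcm4 was not called with centring on the median), and the mitotic genes Aurka, Ccnb2 and Cdc20 by -1.87, -1.56 and -1.48. The higher members besides Ccnd2, named after their values were seen, were Mki67, listed with the mitotic genes, Ccne2 (cyclin E2) and Cdk6. Without mESC replicate 2 the higher members were 2 in place of 4. Inhibitors of cyclin-dependent kinases and p53 targets had 0 higher and 4 lower of 17 measured (median difference -0.18), with Ccng1 (-2.25 ± 0.21 SE, adjusted p = 0.000177) and Bax (-1.35 ± 0.12 SE, adjusted p = 0.000127) lower and Cdkn1a (p21; -0.1) not called. The Myc family had 2 higher and 2 lower of 9 measured (median difference 0.05): Myc was higher (1.84 ± 0.11 SE, adjusted p = 1.77e-05) and Mycn lower (-1.57 ± 0.10 SE, adjusted p = 2.12e-05), with the antagonist genes Mxd4 higher (2.15 ± 0.18 SE, adjusted p = 8.39e-05) and Mga lower (-1.45 ± 0.16 SE, adjusted p = 0.000395).

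Genes of sugar and one-carbon metabolism and of ribosome assembly were lower where they were called. Glycolysis genes had 0 higher and 9 lower of 19 measured (median difference -0.87). Slc2a3, a glucose transporter gene, had 7.16, 7.29 and 7.29 in embryo cells, against 14.68, 14.34 and 14.45 in mESC (-7.24 ± 0.11 SE, adjusted p = 1.2e-08), while its relative Slc2a1 differed by -1.55 ± 0.18 SE, adjusted p = 0.000523. Pfkp, a phosphofructokinase gene, differed by -3.61 ± 0.39 SE, adjusted p = 0.000347, and Ldhb, Hk2 and Pgk1 by -2.24, -2.17 and -1.45. Threonine, serine and one-carbon genes had 0 higher and 6 lower of 11 measured (median difference -1.11). Mouse stem cells break down threonine through Tdh, which had 4.37, 4.42 and 4.19 in embryo cells, against 10.45, 10.75 and 10.65 in mESC (-6.29 ± 0.10 SE, adjusted p = 1.22e-08), and through the glycine cleavage enzyme gene Gldc, which had 5.36, 5.91 and 5.81 in embryo cells, against 11.66, 11.77 and 11.77 in mESC (-6.04 ± 0.14 SE, adjusted p = 1.21e-07). No array of either gene overlapped between groups. Psat1 of serine synthesis differed by -3.76 ± 0.15 SE, adjusted p = 2.19e-06, and Tyms was not called (0.63). Ribosome biogenesis genes had 0 higher and 9 lower of 16 measured (median difference -1.05) and smaller differences, such as Rrp9 (-1.8 ± 0.11 SE, adjusted p = 1.62e-05), Nolc1 (-1.79 ± 0.22 SE, adjusted p = 0.000613) and Wdr12 (-1.6 ± 0.09 SE, adjusted p = 1.14e-05); Ncl, Npm1 and Fbl were not called (-0.7, -0.36 and -0.3). With quantile normalisation 6 of them were called in place of 9.

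Imprinted genes, transcribed from 1 parental copy, had 5 higher and 4 lower of 17 measured (median difference 0.37). Peg10 had 7.9, 7.53 and 6.74 in embryo cells, against 12.79, 12.66 and 12.44 in mESC (-5.24 ± 0.48 SE, adjusted p = 0.000142) and Phlda2 4.78, 3.97 and 4.69 in embryo cells, against 13.98, 14.26 and 14.27 in mESC, both lower. Plagl1, a growth-restraining zinc finger gene, had 9.89, 8.87 and 9.46 in embryo cells, against 6.38, 6.02 and 6.14 in mESC (3.23 ± 0.33 SE, adjusted p = 0.000249), and Nnat, Igf2, Ndn and Mest differed by 3.14, 2.47, 2.14 and 2.07, all higher. H19, in a cluster with Mir675, had 15.51, 15.72 and 15.34 in embryo cells, against 9.74, 10.22 and 11.1 in mESC (5.17 ± 0.38 SE, adjusted p = 5.17e-05). Snrpn, in a cluster with Snurf, was called lower, with 8.66, 8.69 and 8.41 in embryo cells, against 10.05, 10.23 and 10.57 in mESC (-1.70 ± 0.24 SE, adjusted p = 0.0013). The median of this list ran between 0.02 without embryo replicate 1 and 0.65 without embryo replicate 3, so it has no stable size. Oncofetal genes had 1 higher and 3 lower of 6 measured (median difference -0.42). Among brighter clusters alone, a setting that leaves out dim members of the list, 1 lower member remained. Trim71 was lower (-5.4 ± 0.31 SE, adjusted p = 1.33e-05), as were Lin28b (-1.62 ± 0.07 SE, adjusted p = 4.02e-06) and Lin28a (-1.17 ± 0.10 SE, adjusted p = 0.000101), and Hmga2 was higher (1.72 ± 0.09 SE, adjusted p = 1.02e-05).

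Of 5 sex-linked genes, 2 were called higher, where 5.01% of all named clusters were called higher and 6.11% lower. Xist, the RNA that coats the inactive X chromosome of female cells, had 14.53, 13.62 and 14.36 in embryo cells, against 6.5, 5.88 and 6.11 in mESC (8.01 ± 0.27 SE, adjusted p = 7.99e-07). The Y-linked gene Kdm5d had 7.63, 8.09 and 7.63 in embryo cells, against 5.3, 5.48 and 5.44 in mESC (2.38 ± 0.20 SE, adjusted p = 9.92e-05), while Ddx3y (0.3), Uty (-0.14) and Eif2s3y (0.53) were not called. Each embryo sample pooled several embryos, and no source used here states the sex of the mESC line. Interferon-stimulated genes had 0 higher and 2 lower of 13 measured (median difference -0.2): Bst2 (tetherin) had 7.06, 6.94 and 6.87 in embryo cells, against 13.09, 13.36 and 13.48 in mESC (-6.35 ± 0.20 SE, adjusted p = 5.4e-07) and Ifitm3 differed by -1.24 ± 0.11 SE, adjusted p = 0.000117, whereas Ifit1 (-0.25) and Isg15 (-0.2) lay at or below the control level in both groups. Limma called 0 of 7 measured MHC class I genes in either direction; at an unadjusted p under 0.05, 6 of them passed, and H2-K1 and B2m differed by -0.44 and -0.55. Cxcr4, a chemokine receptor gene, was among the 10 largest increases, with 13.01, 13.28 and 11.83 in embryo cells, against 4.47, 4.24 and 4.98 in mESC (8.14 ± 0.40 SE, adjusted p = 5.95e-06), as was the guidance gene Sema3d (8.66 ± 0.09 SE, adjusted p = 2.02e-09).

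Immediate early and stress genes, which dissociation can induce, set the embryo arrays apart from one another. Of 16 measured, 1 was called higher and 0 lower, and 8 were called higher when embryo replicate 3 was left out, with a median difference of 1.26 in place of 0.75. Without embryo replicate 1, 1 was lower. Jun, the called member, had 13.99, 14.09 and 10.28 in embryo cells, against 6.97, 6.76 and 7.66 in mESC (5.66 ± 0.93 SE, adjusted p = 0.00296); embryo replicates 1 and 2 were the highest and replicate 3 was lower, though above every mESC array. Jun was not called in the authors' deposited table. Fos had 11.6, 11.11 and 7.01 in embryo cells, against 6.38, 6.89 and 7.03 in mESC (difference 3.14 ± 1.08 SE, adjusted p = 0.0674), and Fosb had 13.48, 11.91 and 6.46 in embryo cells, against 7.71, 7.61 and 7.49 in mESC (3.01 ± 1.55 SE, adjusted p = 0.193). In both genes embryo replicate 3 lay within or below the mESC range and the other 2 embryo arrays far above it. Egr2 had 8.49, 9.46 and 5.95 in embryo cells, against 5.85, 5.8 and 5.95 in mESC (adjusted p = 0.0866), again lowest on embryo replicate 3 among the embryo arrays. The summed linear signal of the list, as log2, was 11.63 to 15.18 on the embryo arrays and 11.97 to 12.31 on the mESC arrays. The part of dissociation in other differences was not tested.

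Markers of cells that a sort of incisor tissue could also hold were mostly near the control level in both groups. Over all named clusters, 5.01% were called higher and 6.11% lower. Mesenchyme (8.0% higher), macrophage (7.14% each way), endothelial (9.09% lower) and cornified keratinocyte markers (9.09% each way) were near these shares. Larger shares were lower among skeletal muscle (22.2%) and neuron markers (3 of 10), and higher among Schwann cell and glia markers (11.1%). Whether any of these lists differs from all clusters was not tested. Among 25 measured mesenchyme markers, 2 were called higher and 0 lower (median 0.17), and the summed signal was 12.68 to 13.58 on the embryo arrays and 11.05 to 12.02 on the mESC arrays. The 2 were Dcn, a matrix proteoglycan gene with 11.81, 9.68 and 10.94 in embryo cells, against 5.46, 5.73 and 5.85 in mESC (5.13 ± 0.61 SE, adjusted p = 0.000567), and Snai2, a zinc finger gene that basal epithelial cells also use, with 11.03, 11.6 and 11.56 in embryo cells, against 6.39, 6.41 and 7.75 in mESC (4.55 ± 0.39 SE, adjusted p = 0.0001). Pdgfra, a growth factor receptor gene of mesenchyme in a cluster with a microRNA and outside these 25, was called higher too, with 6.29, 6.24 and 6.29 in embryo cells, against 5.15, 5.15 and 5.18 in mESC (1.11 ± 0.20 SE, adjusted p = 0.00456). The fibrillar collagen genes Col1a1, Col1a2 and Col3a1 differed by -0.66, 1.08 and 0.17 and were not called, and 10 of the 25 were below 4.81 in both groups. Macrophage markers were 1 higher and 1 lower of 14: Tyrobp differed by 1.7 ± 0.41 SE, adjusted p = 0.0175, a call lost without embryo replicate 3 or mESC replicate 1 or 2, and Lyz2 was lower (-4.51 ± 0.23 SE, adjusted p = 7.3e-06; 2 markers were lower without embryo replicate 1), while Ptprc and C1qa had embryo means of 4.46 and 4.79. Embryo replicate 1 stood apart in a pair of members: Csf1r, the receptor gene for the macrophage growth factor, had 6.73, 5.27 and 5.26 in embryo cells, against 4.71, 4.8 and 4.67 in mESC (1.03 ± 0.36 SE, adjusted p = 0.0736) and was called higher with median centring, quantile normalisation or brighter clusters alone, and Cd68, a lysosomal protein gene, had 9.81, 7.92 and 7.73 in embryo cells, against 9.21, 8.81 and 9.34 in mESC (-0.63 ± 0.50 SE, adjusted p = 0.388). The summed signal of the macrophage list was 9.08 to 10.47 on the embryo arrays and 10.39 to 10.86 on the mESC arrays. Of 11 endothelial markers 1 was lower, Pecam1, which stem cells also express (-4.07 ± 0.08 SE, adjusted p = 5.15e-08), and 10 had embryo means below 4.81, with the summed signal 7.72 to 7.95 on the embryo arrays and 9.59 to 9.66 on the mESC arrays. Limma called 0 of 11 erythroid markers, 9 of which were below 4.81 in both groups; without embryo replicate 3, 1 was called higher, and 1 passed an unadjusted p under 0.05. Neuron markers were 1 higher (Dcx, 1.78) and 3 lower of 10: Stmn2 (-5.53 ± 0.10 SE, adjusted p = 2.29e-08), Nefl (-3.93 ± 0.26 SE, adjusted p = 2.85e-05) and Elavl3 (-2.83 ± 0.11 SE, adjusted p = 1.63e-06), with mESC means of 10.13, 8.62 and 6.56. Schwann cell and glia markers were 1 higher of 9, Erbb3, with Sox10 at 5.01 in embryo cells and 4.45 in mESC. Without embryo replicate 2, 2 of these markers were higher. Embryo replicate 1 was the highest embryo array in Fabp7 (9.41, 6.56 and 6.13 in embryo cells, against 6.29, 6.56 and 6.81 in mESC). The same held for Gfra3 (6.92, 4.49 and 5.1, against 4.12, 4.23 and 4.2) and Cdh19 (6.56, 4.35 and 4.58, against 4.24, 4.01 and 4.08). None of the last 3 genes was called. Skeletal muscle markers were 2 lower of 9 (1 without embryo replicate 3 or mESC replicate 3), and cornified keratinocyte markers 1 higher (Krt10, 1.26) and 1 lower (Tgm1, -3.53) of 11, with Lor and Flg at 4.70 and 4.78 in embryo cells. The part of such cells in the differences above was not tested.

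**Figure D5:**
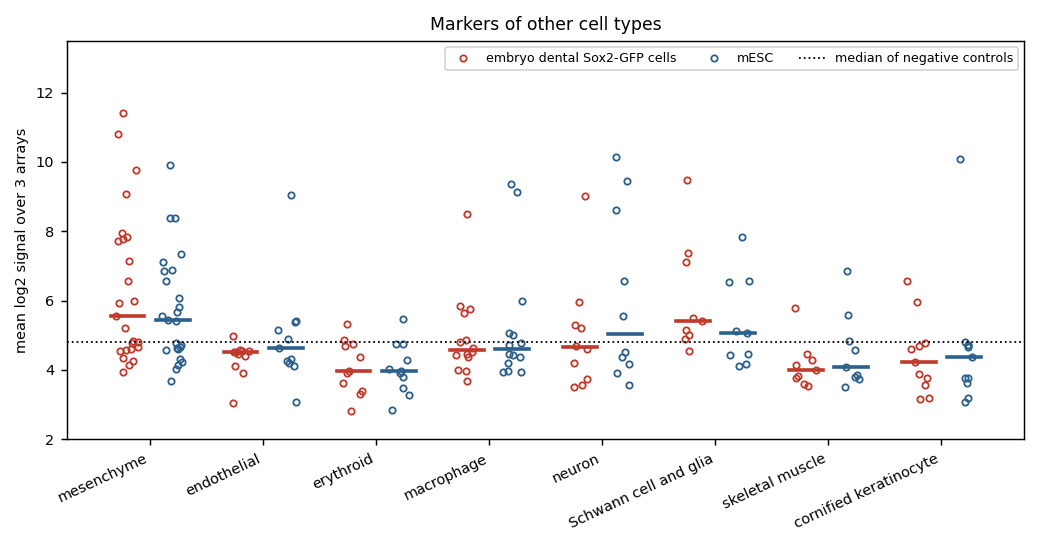
Mean log2 signal over 3 arrays of each marker of 8 other cell types in embryo cells (red, left of each pair) and mESC (blue, right), with the median of each list as a bar and the negative-control median of 4.81 as a dotted line; the sideways position within a list has no meaning. Most markers lie near the dotted line in both groups, with the highest embryo values among mesenchyme markers (Snai2 and Dcn).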

How the data were processed

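RNA was hybridised to Affymetrix Mouse Transcriptome Arrays, 3 arrays per group. The deposited values are log2 signals per transcript cluster, summarised by the authors with RMA in Affymetrix Expression Console and Transcriptome Analysis Console per the submitters' processing notes, and with its signal-space variant per the file headers; no version is stated. Such normalisation sets the arrays to a common distribution, so differences are relative. The authors' deposited table also holds a signed linear fold change and p-values of an analysis of variance, used as an alternative and for gene symbols and coordinates. No source used here names the genome build; 98.69% of 30250 clusters matched by symbol overlap the gene's position in GRCm38.p6, and 1326 older symbols were updated through that table.

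Of 65956 clusters, 36559 with 1 symbol were tested with limma 3.58.1 (R 4.3.3; lmFit and eBayes) on all 9 arrays with a mean per group, 6 residual degrees of freedom, and Benjamini-Hochberg adjustment over all of them. Every adjusted p in the text is from such a limma fit. Genes of lists are represented by the cluster with the highest mean over the 9 arrays. Of 818 listed genes, 764 were measured in a cluster of 1 symbol. Named are Sox2, the 10 largest increases and 10 largest decreases among called clusters with groups that do not overlap and a brighter group mean at least 2 above the negative-control median, and from each of 47 lists the first 3 members, up to 8 by absolute difference, and all microRNA precursors. Members and lists were chosen with earlier results of these data known. The fit was tested on simulated data. Processing days were read from column names, where the name E1 stands on both days, so 1 embryo sample may have been run on 2 occasions; the 2 columns differed by an SD of 0.333 over clusters, against 0.319 and 0.356 for the other embryo pairs. No day-1 column was of mESC, so the only within-day value is that of day 2. Alternatives were other normalisations, thresholds, blocks, weights and arrays left out in turn. Some genes of the lists count in the totals but are not reported by name here.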

Additional observations from a re-analysis of the deposited data

Results flagged for a closer look

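Clusters without a gene symbol, which the comparison of named clusters left out, also held called members. In a separate limma fit of 26355 of them, 1279 (4.85%) were called, 969 higher (3.68%) and 310 lower (1.18%) in embryo cells, and 697 of the 969 reached at least 2 log2 units above the negative-control median in one group. The annotation gives 962 of the 969 as noncoding. On chromosome 15, the cluster from 13029647 to 13033814 had 13.0, 13.33 and 13.73 in embryo cells, against 4.01, 4.23 and 4.09 in mESC (9.24 ± 0.47 SE, adjusted p = 6.22e-05). On chromosome 4, that from 147392487 to 147393162 had 5.79, 6.41 and 6.16 in embryo cells, against 16.51, 16.58 and 16.27 in mESC (-10.33 ± 0.33 SE, adjusted p = 6.15e-06), and on chromosome 13 that from 65806740 to 65817643 differed by -6.90 ± 0.17 SE. Some clusters at different positions held identical values on all arrays, so this count is not one of separate transcripts.

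Clusters with several gene symbols, 3042 in number, were tested only when added to the named ones; 286 (9.4%) were then called, 107 higher and 179 lower in embryo cells. The clusters of the miR-290 locus, Mir205, H19 and Tfcp2l1 described above are among them.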

How the results depend on the processing

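Calls of the comparison (4068, 1833 higher and 2235 lower in embryo cells) ranged from 3664 to 4145 when 1 array of either group was left out, with 1636 to 1971 higher and 2028 to 2248 lower. At the stricter threshold (adjusted p under 0.01 and a log2 difference of at least 2) 1230 clusters were called, 608 higher and 622 lower. The other settings stayed within 1.5 times of these counts: the 6 arrays alone, array weights, a variance trend, quantile normalisation, median centring, brighter clusters alone, clusters of several symbols added, the processing day as a block, the second day alone, the averaged embryo columns of 1 name (added after the data were seen) and the authors' deposited table (3205). Over all named clusters, the replicate numbers shared by the groups did not pair the arrays (correlation of deviations -0.028, -0.036 and -0.089). Amelx, Ambn and Enam, however, were highest on replicate 2 of both groups. With a replicate block 3986 clusters were called, 1808 higher and 2178 lower. Of 242 called genes among 422 admitted by the rule for named genes, 16 lost their call in some leave-one-out fit, 2 with the replicate block, 11 within the second day, 25 in the authors' deposited table and 80 at the stricter threshold; 0 changed direction in any setting. Of list medians of at least 0.3 in size, 2 changed sign in an alternative: that of oncofetal genes (-0.42) was 0.54 among brighter clusters alone, and that of enamel matrix genes (0.32) was -0.16 with the processing day as a block. The cause was not tested. The number of arrays limits precision, and signals near the negative controls limit the size of differences.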

Other observations

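Beyond the lists, gene families were read off by their symbols after the values were seen, so no test is attached. Axon guidance genes were higher in embryo cells where they were called. Of 19 semaphorin genes, 9 were called higher and 0 lower (median difference 0.67), against 5.01% and 6.11% of all named clusters. Sema3d had 13.49, 13.32 and 13.46 in embryo cells, against 4.68, 4.75 and 4.87 in mESC (8.66 ± 0.09 SE, adjusted p = 2.02e-09), and Sema3a differed by 6.32 ± 0.29 SE, adjusted p = 3.98e-06. Their receptors, the plexins and neuropilins, were 8 higher and 0 lower of 10, with Nrp2 at 4.23 ± 0.29 SE and Plxnb1 at 3.28 ± 0.24 SE. Ephrin ligand genes were 6 higher of 8, among them Efnb2 with 13.45, 13.99 and 13.47 in embryo cells, against 8.14, 8.32 and 8.29 in mESC (5.39 ± 0.15 SE, adjusted p = 2.82e-07), and Eph receptors 5 higher of 14, among them Epha4 (5.11 ± 0.22 SE, adjusted p = 2.88e-06). Robo1, a Slit receptor gene, differed by 5.5 ± 0.12 SE, adjusted p = 8.44e-08. None of the groups of arrays overlapped in these named genes, as in 4065 of all 4068 called clusters.

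Of 13 Platr genes, noncoding transcripts named for their link to pluripotency, 9 were called lower and 0 higher. Platr10 had 4.32, 4.13 and 3.81 in embryo cells, against 11.28, 11.63 and 11.16 in mESC (-7.27 ± 0.19 SE, adjusted p = 2.16e-07), and Platr14 differed by -6.8 ± 0.26 SE, adjusted p = 1.44e-06. Zinc finger genes with Zfp symbols were 45 higher and 34 lower of 365, against 5.01% and 6.11% of all named clusters. The largest decreases lay among numbered genes of chromosomes 4 and 13. Zfp640 on chromosome 13 had 7.15, 7.09 and 7.32 in embryo cells, against 14.48, 14.54 and 14.59 in mESC (-7.35 ± 0.18 SE, adjusted p = 1.32e-07). Zfp980 on chromosome 4 had 7.45, 7.77 and 7.46 in embryo cells, against 14.85, 14.76 and 14.68 in mESC (-7.2 ± 0.14 SE, adjusted p = 3.7e-08). Zfp981, Zfp979, Zfp600 and Zfp987, also on chromosome 4, differed by -5.79, -5.01, -4.89 and -4.51; such genes are close copies of one another, and their probes may share signal. Within the Sox family, 4 genes were higher and 2 lower of 18. Sox15 had 4.4, 4.66 and 4.22 in embryo cells, against 8.52, 8.87 and 8.7 in mESC (-4.27 ± 0.20 SE, adjusted p = 4.22e-06), lower like Sox2, while Sox4, Sox9 and Sox11 differed by 3.57, 3.0 and 4.01.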
